A study of Homo sapiens with 6 samples.

Results

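The genes described here are the ATP-binding cassette (ABC) transporters of the human subfamilies ABCA to ABCG, read in LN229R glioma cells with and without ATRX, a SWI/SNF-like chromatin remodeler. A gene was a member when its symbol was ABC, a subfamily letter from A to G and a number, and when a transcript cluster of the array carried that symbol alone. This rule found 43 genes among the 33616 genes tested, and it used no measured value except to keep, for the 5 members with several clusters, the cluster of the highest mean over all 6 arrays.

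All samples expressed CAS9. The 3 ATRX NC arrays came from cells with a non-targeting sgRNA and the 3 ATRX KO arrays from cells with sgRNAs designed against ATRX. Puromycin selection for 7 days followed the CAS9 virus in both groups, at 10 mg/ml as the labels have it, and infection with the sgRNA virus then lasted 24 h. The paper gives the puromycin dose per mL in micrograms. It describes LN229R as GBM cells of the LN229 line that became resistant to TMZ, whereas the sample labels read LN229. The sources do not say that the arrays of a group came from separate cultures or that the edited cells were 1 clone, so the p-values measure the spread between these arrays, which may be technical. In such bulk RNA a change in how many cells make an mRNA and a change in its amount per cell cannot be told apart.

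ABC proteins bind and hydrolyse ATP on a pair of nucleotide-binding domains and use that energy to move a substrate across a membrane. ABCB1, ABCC1, ABCC3 and ABCG2 export drugs and their conjugates, and they are studied in tumors and at the blood-brain barrier because they can lower the amount of a drug inside a cell. Many ABCA, ABCD and ABCG proteins move cholesterol, phospholipids or fatty acids instead, and ABCE1 and the ABCF proteins have no membrane domain and act on ribosomes.

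The levels of 8 members passed the test between the groups, and the sequences before the starts of 5 of them are shown because they differ in how many CG pairs, the sites of DNA methylation, they hold. Each is 300 bases of the human assembly GRCh38.p14 from RefSeq, from 250 bases before a gene's transcription start to 50 bases after it, written 5′ to 3′ on the strand of the gene with the CG pairs in capitals. The first 3 belong to neighbouring ABCA genes of chromosome 17 whose levels fell, on the minus strand at chr17:69327084-69327383 (ABCA5), chr17:69141846-69142145 (ABCA6) and chr17:69060878-69061177 (ABCA9). The other 2 belong to members whose levels rose, ABCG2 on the minus strand at chr4:88158810-88159109 and ABCC2 on the plus strand at chr10:99782390-99782689.
ABCA5: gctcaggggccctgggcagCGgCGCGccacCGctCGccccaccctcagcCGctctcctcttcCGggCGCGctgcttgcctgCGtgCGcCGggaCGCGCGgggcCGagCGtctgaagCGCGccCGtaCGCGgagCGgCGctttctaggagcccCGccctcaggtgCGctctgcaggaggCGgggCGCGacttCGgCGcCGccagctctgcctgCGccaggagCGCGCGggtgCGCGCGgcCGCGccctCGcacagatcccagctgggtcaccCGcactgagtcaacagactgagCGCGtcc
ABCA6: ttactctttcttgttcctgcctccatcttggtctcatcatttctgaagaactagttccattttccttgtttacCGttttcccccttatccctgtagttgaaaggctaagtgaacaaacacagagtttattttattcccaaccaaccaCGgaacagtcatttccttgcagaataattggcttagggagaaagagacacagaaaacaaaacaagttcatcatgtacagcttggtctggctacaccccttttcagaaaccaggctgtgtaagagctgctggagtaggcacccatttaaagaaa
ABCA9: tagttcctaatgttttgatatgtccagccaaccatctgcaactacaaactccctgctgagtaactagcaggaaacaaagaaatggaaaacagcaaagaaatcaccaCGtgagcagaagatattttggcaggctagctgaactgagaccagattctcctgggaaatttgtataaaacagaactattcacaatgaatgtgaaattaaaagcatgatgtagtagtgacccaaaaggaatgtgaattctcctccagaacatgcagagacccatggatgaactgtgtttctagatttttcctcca
ABCG2: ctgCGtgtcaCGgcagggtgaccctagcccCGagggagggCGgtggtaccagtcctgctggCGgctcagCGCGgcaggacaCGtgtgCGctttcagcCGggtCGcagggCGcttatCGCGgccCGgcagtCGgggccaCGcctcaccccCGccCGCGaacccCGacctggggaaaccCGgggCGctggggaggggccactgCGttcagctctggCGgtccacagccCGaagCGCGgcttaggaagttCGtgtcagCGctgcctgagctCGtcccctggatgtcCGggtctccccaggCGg
ABCC2: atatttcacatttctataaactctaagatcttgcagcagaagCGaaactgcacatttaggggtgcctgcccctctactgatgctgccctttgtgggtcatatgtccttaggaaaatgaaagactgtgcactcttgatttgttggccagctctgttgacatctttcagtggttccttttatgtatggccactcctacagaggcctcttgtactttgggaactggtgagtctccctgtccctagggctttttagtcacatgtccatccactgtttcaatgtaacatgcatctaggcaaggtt

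The window of ABCA5 held 45 CG pairs, a number that 3.48% of the 35116 windows in the table reached or passed, and 76.3% of its bases were G or C. By contrast, ABCA6 had 2 CG pairs and ABCA9 had 1, at G and C shares of 41.7% and 39.7%, and 18.2% of all windows had 2 or fewer. ABCG2 has 5 annotated starts, whose windows held from 3 to 35 CG pairs. The one shown had 33, and the window of ABCC2 had 1. The median window had 14 CG pairs. A window was given for 34 of the 43 members and for 6 of the 8 that passed, all but ABCC3 and ABCB4. The window of ABCA13, not shown, had 3 CG pairs. Methylation and protein binding were not measured at these sites.

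Of 6 short motifs searched on both strands, the GC box GGGCGG stood in 25 of the 51 windows of members and in 45.0% of all windows, and the antioxidant response core TGACNNNGC stood in 12 and in 13.3%. ABCA5 had both, and the window of ABCG2 shown had 2 GC boxes. Another window of ABCG2 had the antioxidant response core and the STAT-type element TTCNNNGAA, which stood in 7.66% of all windows. Motifs were allowed to overlap, and a match is a match of letters only.

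ABCA6 had the CCAAT box, spelled by those 5 letters, which stood in 12 windows of members and in 34.6% of all windows. ABCA9 and ABCC2 each had the TATA box letters TATAAA, which stood in 8 windows of members and in 11.5% of all windows. A match at any position in the window counted, and its distance to the start was not used. A hormone receptor motif, AGGTCA, stood in 3 windows of members and in 13.8% of all windows.

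The label check came first. ATRX read 10.49, 10.22 and 10.14 on the log2 intensity scale in the 3 ATRX NC arrays and 8.47, 8.67 and 8.75 in the 3 ATRX KO arrays, so that 31.8% of its linear signal was left. ATRX fell by 1.65 (SE 0.16, adjusted p = 0.00056). Adjusted p-values here are from limma with the Benjamini-Hochberg method over all 33616 genes, the threshold was 0.05, and every fold change is ATRX KO minus ATRX NC. Arrays of a group correlated at 0.990 to 0.992 over genes, and array medians lay between 6.03 and 6.17. Among glioma and neural stem markers VIM was bright in both groups (log2 fold change 0.03), S100B and NES fell by 2.93 and 1.02, EGFR rose by 0.94, and GFAP and OLIG2 were under 6.10, the median level of all genes, in each group.

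Levels of 3 ABC members rose, ABCC3, ABCG2 and ABCC2, and levels of 5 fell, ABCA5, ABCA6, ABCB4, ABCA9 and ABCA13. The 3 that rose were listed with exporters of drugs or organic anions, and the 5 that fell with the lipid transporters. ABCA5, ABCA6 and ABCA9 are close paralogs, and the calls of ABCA9 and ABCA13 did not hold in every fit tried. In share, 6.98% of the members were up and 11.6% down, against 5.79% of all genes up and 3.72% down. Among the 17579 protein-coding genes 7.97% were up and 5.77% down. Taken in either direction, 18.6% of the members passed, against 9.51% of all genes and 13.7% of protein-coding genes. The remaining 35 did not pass. At an unadjusted p under 0.05, 8 members were higher and 7 lower, where 24.3% of all genes and 29.6% of protein-coding genes were under it. The median log2 fold change was 0.07 over the members and 0.07 over all genes.

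All 3 ATRX KO arrays lay above all 3 ATRX NC arrays for 10 members (23.3%, against 19.0% of all genes and 22.7% of protein-coding genes), and below them for 8 (18.6%, against 11.2% and 15.0%), and the groups overlapped for 25. Of the genes called over the whole array 60.9% were up, a share that was 48.7% after a second quantile normalization, 47.7% with arrays centred on their medians and 49.2% after cyclic loess. The same 8 members passed under each of these 3 scalings, in the same directions. For 17 members the means of both groups were below the median gene level, and small changes of such genes are less well measured.

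**Figure D1:**
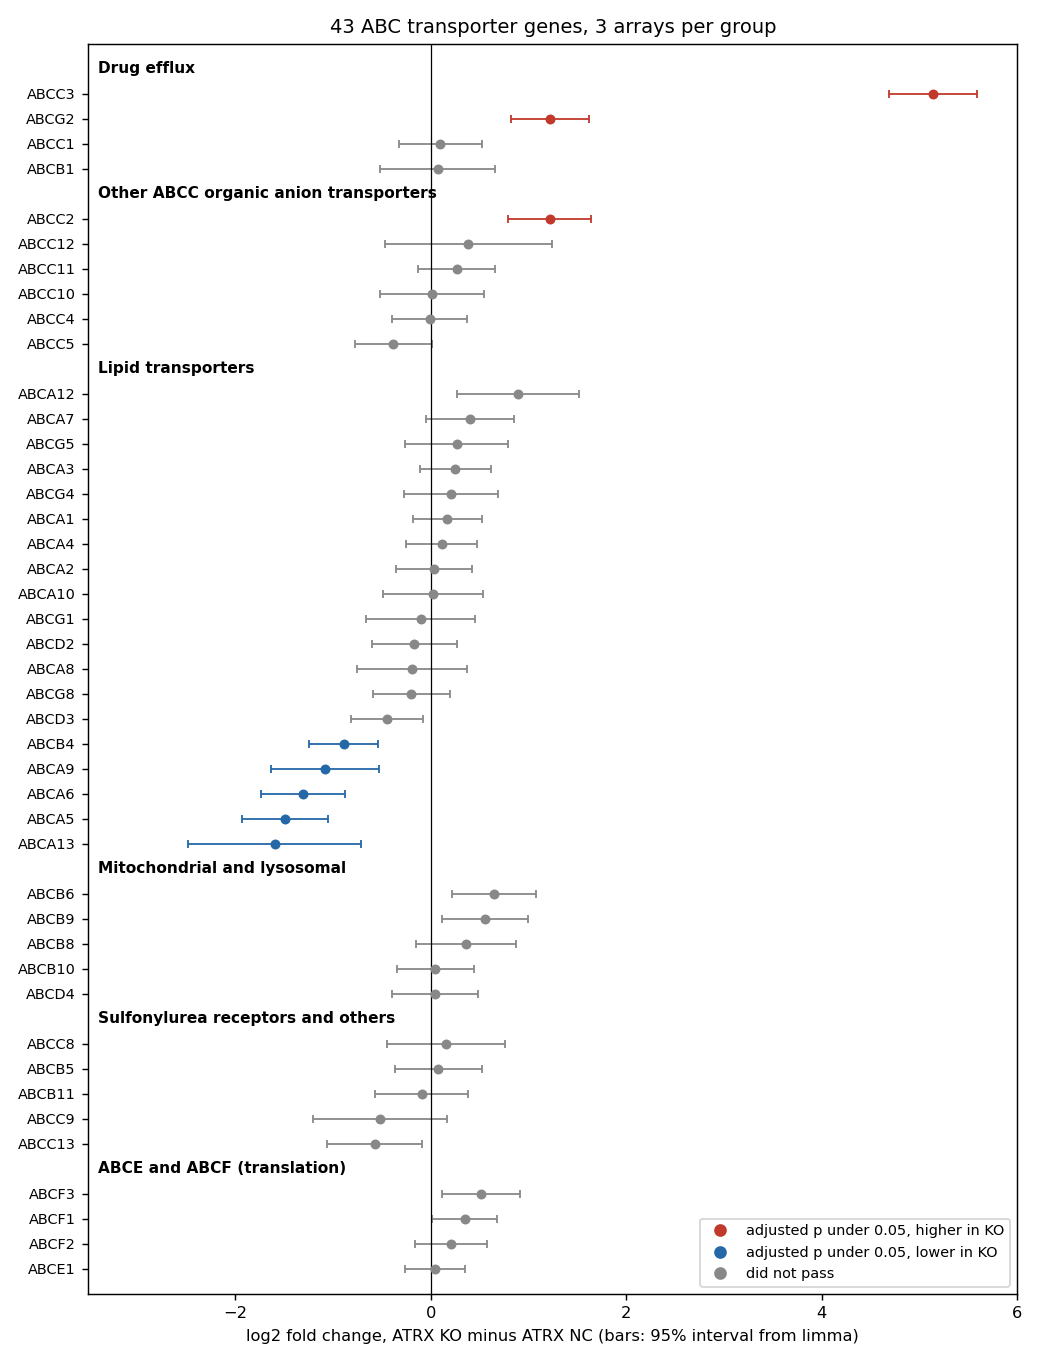
Log2 fold change of each of the 43 ABC genes, ATRX KO minus ATRX NC, with its 95% interval from limma (3 arrays per group). Genes are grouped by assigned role, and the substrates of ABCA6 and ABCA9 are less well known. ABCC3 stands apart from all others at 5.14, and the 5 genes that fell all lie among the lipid transporters.

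Drug efflux was described first. ABCC3 (MRP3), an exporter of glucuronide conjugates and of drugs such as etoposide and methotrexate, had the largest change of all members. It read 6.83, 6.25 and 6.27 in ATRX NC and 11.67, 11.44 and 11.65 in ATRX KO. Each ATRX KO array was thus far above each ATRX NC array, and the group means went from just over the median gene level to far above it. The log2 fold change was 5.14 (SE 0.20, adjusted p = 3.8e-06), a 35.2-fold higher signal, and its adjusted p stayed at or below 0.0055 in all 17 alternatives.

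ABCG2 (BCRP), an exporter of urate and of many anticancer drugs that is found on brain capillaries and on stem cells, also rose. It read 7.09, 7.12 and 7.55 in ATRX NC and 8.55, 8.48 and 8.38 in ATRX KO, with no overlap. The change was 1.22 (SE 0.17, adjusted p = 0.0038), a 2.33-fold higher signal.

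The other drug exporters given with the rule did not pass. ABCB1 (P-glycoprotein), the multidrug exporter of the blood-brain barrier, read 4.28, 4.33 and 5.15 in ATRX NC and 4.82, 4.77 and 4.39 in ATRX KO, below the median gene level in both groups. These groups overlapped, the difference was 0.07 with a 95% interval from -0.52 to 0.66 (adjusted p = 0.90), and its sign turned without ATRX NC array 1 (-0.081), ATRX NC array 2 (-0.058) or ATRX KO array 1 (-0.0077), as well as with median centring (-0.023). ABCC1 (MRP1), an exporter of glutathione conjugates, read 10.34, 9.84 and 10.15 in ATRX NC and 10.15, 10.42 and 10.05 in ATRX KO. Its groups overlapped as well, at 0.10 with an interval from -0.32 to 0.52 (adjusted p = 0.80), and the sign turned without ATRX NC array 2 (-0.034) or without ATRX KO array 2 (-0.0085). A rise of the ABCC1 signal by more than 0.52 or of the ABCB1 signal by more than 0.66 is thus outside the intervals, and smaller ones are not. At the dim level of ABCB1 the signal may be compressed, so its interval does not bound the change of the mRNA.

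ABCC2 (MRP2), which exports conjugates such as bilirubin glucuronide into bile, was the only passing gene among the 6 other ABCC organic anion transporters. It read 4.39, 4.38 and 4.02 in ATRX NC and 5.21, 5.63 and 5.60 in ATRX KO. The groups did not overlap, but all 6 values lay below the median gene level. The change was 1.22 (SE 0.19, adjusted p = 0.0052).

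The remaining 5 of these transporters had differences from -0.38 to 0.39. ABCC5, an exporter of cyclic nucleotides, was lower in all ATRX KO arrays and did not pass (-0.38, adjusted p = 0.22). ABCC4 (MRP4), which also exports cyclic nucleotides, differed by -0.01 with an interval from -0.39 to 0.37 (adjusted p = 0.98). ABCC12 was the highest of the 5 at 0.39 (adjusted p = 0.59), with a single ATRX NC array at 6.53 above all others.

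**Figure D2:**
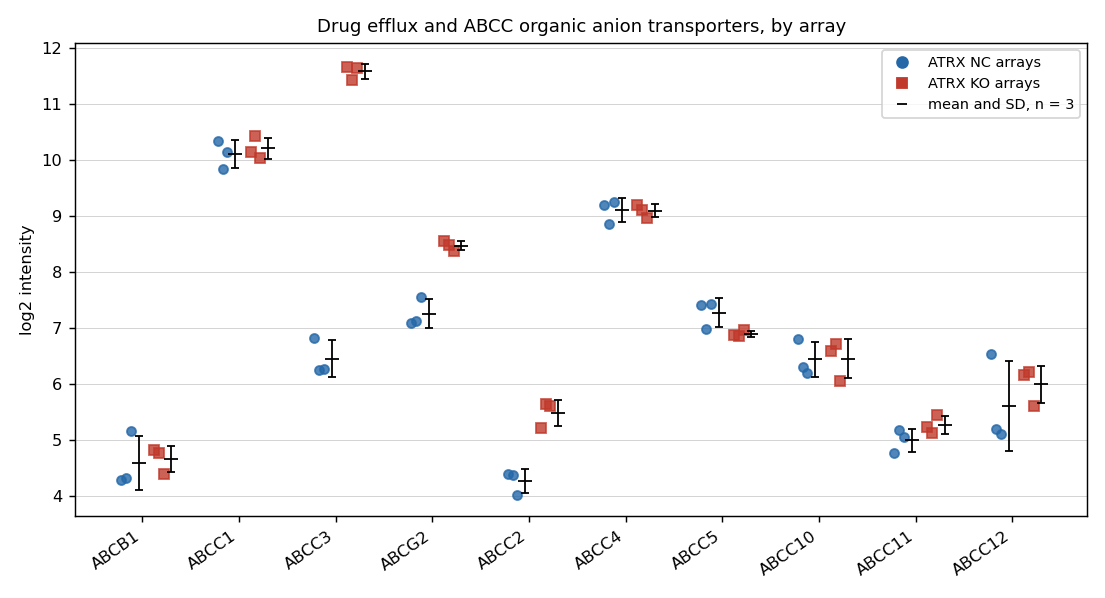
Log2 intensity of the 4 drug efflux genes and the 6 other ABCC organic anion transporters in each array, with the mean and SD of each group (n = 3). The ATRX KO arrays lie above the ATRX NC arrays for ABCC3, ABCG2 and ABCC2 and below them for ABCC5, and the groups overlap for the other 6.

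Lipid transporters made up 19 members, of which 5 fell and 0 rose by limma (1 was higher at an unadjusted p under 0.05). Over all genes 3.72% fell and 5.79% rose, or 5.77% and 7.97% of protein-coding genes. The median log2 fold change of the lipid transporters was -0.10, with a range from -1.59 to 0.89. The ABCA genes of chromosome 17 form a run of close paralogs in the order ABCA8, ABCA9, ABCA6, ABCA10 and ABCA5. ABCA5 is a lysosomal protein with a role in cholesterol handling, and the substrates of the others are less well known. Probes for such similar mRNAs can take signal from each other, and how far they did was not tested.

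ABCA5 read 10.36, 11.03 and 10.58 in ATRX NC and 9.15, 9.15 and 9.21 in ATRX KO, where the 3 arrays nearly coincided. The groups were apart, and the level fell by 1.49 (SE 0.19, adjusted p = 0.0023), to 35.7% of the ATRX NC signal. ABCA6 read 8.43, 8.11 and 8.10 against 7.19, 6.67 and 6.86, again apart. It fell by 1.31 (SE 0.19, adjusted p = 0.0038), to 40.5% of the ATRX NC signal.

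ABCA9 read 6.33, 6.61 and 6.80 in ATRX NC and 5.83, 5.68 and 4.99 in ATRX KO, so the groups were apart but the lowest ATRX KO array stood well under the others. It fell by 1.08 (SE 0.24, adjusted p = 0.029). This call did not hold without ATRX NC array 2 (adjusted p = 0.083), ATRX NC array 3 (0.095), ATRX KO array 2 (0.058) or ATRX KO array 3 (0.064). ABCA8 overlapped between the groups at -0.19 (interval from -0.75 to 0.37, adjusted p = 0.70), and so did ABCA10 at 0.02 (interval from -0.49 to 0.53, adjusted p = 0.97), which was below the median gene level in both groups. The fall was therefore measured for 3 of the 5 paralogs, and the differences between paralogs were not tested.

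Of the genes beside the run, WIPI1, an autophagy protein, also fell, by 0.85 (SE 0.18, adjusted p = 0.021). PRKAR1A, a regulatory subunit of protein kinase A, differed by -0.07 (adjusted p = 0.83), FAM20A by -0.24 (0.62) and MAP2K6, a p38 kinase activator next to ABCA5, by -0.22 (0.39). The antisense gene ABCA9-AS1 did not pass either (0.21, adjusted p = 0.66).

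**Figure D3:**
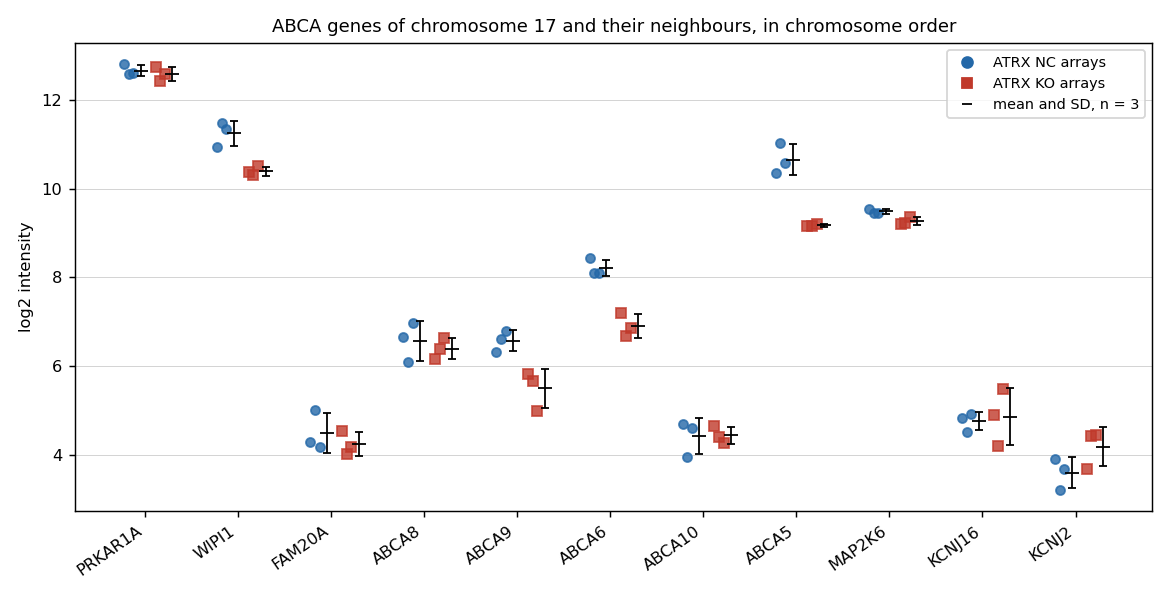
Log2 intensity of the 5 ABCA genes of chromosome 17 and their neighbours in each array, in the order along the chromosome, with the mean and SD of each group (n = 3). ABCA9, ABCA6, ABCA5 and WIPI1 are lower in all ATRX KO arrays with adjusted p under 0.05, while ABCA8 and ABCA10 overlap between the groups.

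ABCB4, the phosphatidylcholine translocator of the bile canaliculus and a close paralog of ABCB1, read 8.35, 8.14 and 8.13 in ATRX NC and 7.44, 7.17 and 7.36 in ATRX KO. The groups were apart and the level fell by 0.89 (SE 0.15, adjusted p = 0.0097), to 54.1% of the ATRX NC signal. ABCB4 and ABCB1 adjoin on chromosome 7, where ABCB1 overlapped between the groups. CROT, a peroxisomal carnitine acyltransferase on the other side of ABCB4, rose by 0.81 (SE 0.20, adjusted p = 0.043).

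ABCA13, one of the longest ABC genes with a genomic span of 476 kb, gave 2 answers. The brighter of its transcript clusters read 7.54, 7.12 and 5.96 in ATRX NC and 5.58, 4.86 and 5.40 in ATRX KO, apart by a narrow gap, and changed by -1.59 (SE 0.39, adjusted p = 0.038). The other read 4.93, 5.66 and 5.24 in ATRX NC and 6.06, 5.21 and 6.29 in ATRX KO, and differed by 0.58 in the opposite direction without passing (adjusted p = 0.30). With the mean of both the difference was -0.51 (adjusted p = 0.32). Even the brighter cluster did not pass without ATRX NC array 1 (adjusted p = 0.093), ATRX NC array 2 (0.115), ATRX KO array 1 (0.070), ATRX KO array 2 (0.115) or ATRX KO array 3 (0.096).

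The sterol exporters that respond to liver X receptors did not pass. ABCA1, which loads cholesterol on apolipoprotein A-I, read 9.87, 9.76 and 9.83 in ATRX NC and 10.04, 9.80 and 10.14 in ATRX KO. The groups overlapped, with a difference of 0.17 and an interval from -0.18 to 0.52 (adjusted p = 0.56). ABCG1, which passes cholesterol to HDL particles, was below the median gene level and differed by -0.10, with an interval from -0.66 to 0.46 (adjusted p = 0.85) and the opposite sign without ATRX KO array 1 (0.16).

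Closest to the threshold among the other lipid transporters was ABCA12, the lipid transporter of skin lamellar granules, which read 5.82, 4.99 and 5.85 in ATRX NC and 6.06, 6.61 and 6.68 in ATRX KO. Its groups were apart at 0.89 (SE 0.27, adjusted p = 0.083), and it passed when protein-coding genes alone were tested and with a variance trend and robust fit. ABCD3, which brings fatty acyl-CoA into peroxisomes, read 14.02, 14.18 and 14.28 in ATRX NC and 13.72, 13.89 and 13.53 in ATRX KO, apart at -0.45 (SE 0.16, adjusted p = 0.13), and passed with the variance trend and robust fit and when genes above the median level alone were tested.

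Mitochondrial and lysosomal transporters (5 members) had differences from 0.04 to 0.65 with a median of 0.36, and 0 passed by limma, with 2 under an unadjusted p of 0.05. Over all genes 19697 of 33616 differences were positive. Median centring moved the median of all genes from 0.07 to -0.02, a shift larger than the differences of ABCB10 and ABCD4 (0.05 and 0.04), which therefore have no settled direction. ABCB6, a porphyrin transporter, read 7.47, 7.24 and 7.81 in ATRX NC and 8.35, 8.07 and 8.06 in ATRX KO. The groups were apart at 0.65 (SE 0.19, adjusted p = 0.071), and ABCB6 passed when protein-coding genes or genes above the median level alone were tested and with a variance trend and robust fit. ABCB9, a lysosomal peptide transporter, was also apart and did not pass (0.56, adjusted p = 0.12). ABCB10, a mitochondrial transporter needed for heme synthesis, overlapped at 0.05 (adjusted p = 0.90).

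The 4 ABC proteins without membrane domains had differences from 0.05 to 0.52, and 0 passed by limma, with 2 under an unadjusted p of 0.05. For 3 of them, ABCF3, ABCF1 and ABCE1, all ATRX KO arrays were above all ATRX NC arrays, as they were for 19.0% of all genes. ABCF3, an ATPase related to translation factors, was at 0.52 (adjusted p = 0.11) and passed when genes above the median level alone were tested, and ABCF1, which acts in translation initiation, at 0.35 (adjusted p = 0.18). ABCE1, which splits ribosomes after termination, read 14.45, 14.43 and 14.40 in ATRX NC and 14.48, 14.48 and 14.47 in ATRX KO, a difference of 0.05 with an interval from -0.26 to 0.35 (adjusted p = 0.88). That difference is smaller than the shift made by median centring.

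The last 5 members, the sulfonylurea receptors ABCC8 and ABCC9, the bile salt exporter ABCB11, ABCB5 and ABCC13, were all below the median gene level in both groups. For the clusters kept, their differences ran from -0.57 to 0.16 and 0 passed by limma, with 1 under an unadjusted p of 0.05. A dimmer cluster of ABCC9 differed by 0.69 (adjusted p = 0.17 by limma over all clusters), opposite to the -0.52 of the one kept. ABCC13 was lower in all ATRX KO arrays (-0.57, adjusted p = 0.14) and passed without ATRX KO array 2. A further 15 symbols of ABC pseudogenes and antisense genes, which the rule leaves out, had 0 that passed by limma and 1 under an unadjusted p of 0.05.

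Transporters of the same superfamily with other names were read as well. TAP1, which with TAP2 carries peptides to HLA class I, read 7.88, 7.81 and 7.75 in ATRX NC and 8.93, 8.70 and 9.12 in ATRX KO, and rose by 1.10 (SE 0.16, adjusted p = 0.0043). TAP2 rose by 0.90 (SE 0.18, adjusted p = 0.019), a call that did not hold without ATRX NC array 1 (0.052), ATRX NC array 3 (0.061), ATRX KO array 2 (0.061) or ATRX KO array 3 (0.073). CFTR, the chloride channel of the ABCC subfamily, did not pass at 0.16.

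Among 16 measured genes of sterol sensing and cholesterol efflux 1 rose and 3 fell, where 5.79% of all genes rose and 3.72% fell. At an unadjusted p under 0.05, 3 were higher and 3 lower. PLTP (0.65, adjusted p = 0.05002) and NCEH1 (0.63, adjusted p = 0.063) were higher in all ATRX KO arrays without passing. Neither was run under the alternatives. APOE, a lipoprotein of astrocytes, rose by 1.07 (SE 0.15, adjusted p = 0.0036). APOD, a lipid carrier of glia, fell by 2.18 (SE 0.14, adjusted p = 7.4e-05) and SCARB1, the HDL receptor, fell by 1.29 (SE 0.17, adjusted p = 0.0025). SREBF1, a regulator of lipid synthesis, fell by 0.93 (SE 0.22, adjusted p = 0.034), but did not pass without ATRX NC array 1 (0.088), 2 (0.086) or 3 (0.090), or without ATRX KO array 1 (0.111) or 2 (0.104). The liver X receptor NR1H3 differed by -0.04 and its partner RXRA by -0.23, and neither passed.

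Among 19 measured genes of xenobiotic sensing and drug handling 3 rose and 2 fell, against 5.79% and 3.72% of all genes. MGST1, a membrane glutathione transferase, rose by 2.73 (SE 0.16, adjusted p = 4e-05), or by 1.75 with the mean over its transcript clusters (adjusted p = 0.00072). GSTA4, a cytosolic glutathione transferase, fell by 1.31 (SE 0.17, adjusted p = 0.0022). KEAP1, the inhibitor of NRF2, rose by 1.10 (SE 0.23, adjusted p = 0.021), a call that was lost without ATRX NC array 1 (0.065), ATRX NC array 2 (0.059), ATRX KO array 1 (0.072) or ATRX KO array 3 (0.071). SLCO4A1, an organic anion uptake carrier, fell by 1.34 (SE 0.19, adjusted p = 0.0040). The related SLCO3A1, named to complete the count and not run under the alternatives, rose by 0.74 (SE 0.18, adjusted p = 0.039). NFE2L2, which encodes NRF2, differed by 0.23 and AHR by 0.41 without passing. Of 7 peroxisomal partners of the ABCD proteins and 2 pore subunits of KATP channels 0 passed by limma, and 0 were under an unadjusted p of 0.05.

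Genes beside the 3 members that rose were read too. Next to ABCC3, CACNA1G and ANKRD40 differed by 0.19 and 0.28 without passing, and LUC7L3 fell by 0.73 (SE 0.16, adjusted p = 0.029). SPATA20, on the side of CACNA1G, was higher in all ATRX KO arrays without passing (0.53, adjusted p = 0.099). On the ABCG2 side SPP1 (osteopontin) fell by 1.69 (SE 0.24, adjusted p = 0.0037). Without passing, PPM1K was lower in all ATRX KO arrays (-0.56, adjusted p = 0.12) and HERC6 higher (0.43, adjusted p = 0.19). PKD2, which adjoins ABCG2, had no value. Near ABCC2, DNMBP rose by 1.25 (SE 0.19, adjusted p = 0.0055) and ERLIN1 by 0.89 (SE 0.15, adjusted p = 0.0073), and CUTC did not pass (0.26, adjusted p = 0.42).

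The samples were labelled as a glioma line, and genes used as markers of other cell types were read in them too. Some of these genes moved with the groups, and some, such as FLT1 (12.52) and LUM (11.65), were bright in ATRX NC already. Of 8 pericyte and fibroblast markers 3 rose, LUM by 3.52, DCN by 2.28 and PDGFRB by 1.84, while COL1A1 (-0.31) and ACTA2 (-0.09) were lower without passing. The share that rose was 5.79% over all genes and 7.97% over protein-coding genes. The mean over these 8 markers was 7.88 to 8.09 in the ATRX NC arrays and 8.98 to 9.15 in the ATRX KO arrays. Of 8 endothelial markers PECAM1 rose by 1.52, FLT1 was lower in all ATRX KO arrays without passing (-0.55, adjusted p = 0.089), 5 were below the median gene level in both groups, and the list mean was 6.18 to 6.34 against 6.42 to 6.57. Of 5 epithelial markers KRT19 rose by 0.74, with a list mean of 6.39 to 6.56 against 6.71 to 7.16. The bright KRT8 (-0.02) and KRT18 (-0.13) overlapped between the groups. EPCAM (0.90) and CDH1 (0.60), below the median gene level in both groups, were higher without passing. Of 6 immune markers 0 passed, with 2 under an unadjusted p of 0.05, at 5.74 to 5.91 against 5.92 to 6.11. Which cells made the mRNAs of these markers, and their part in the ABC levels, was not tested.

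ABC genes are long. Their median genomic span was 82.7 kb, against 26.1 kb for protein-coding genes, and across the 43 members the rank correlation of span with log2 fold change was -0.31, against -0.15 across 17579 protein-coding genes, as a description of genes that share the same 6 arrays. A trend on span was removed from each array in a fit of protein-coding genes alone, and all 8 members passed it. They also passed that fit without the removal. The adjusted p was 0.014 with and 0.013 without it for ABCA9, and 0.024 and 0.019 for ABCA13.

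**Figure D4:**
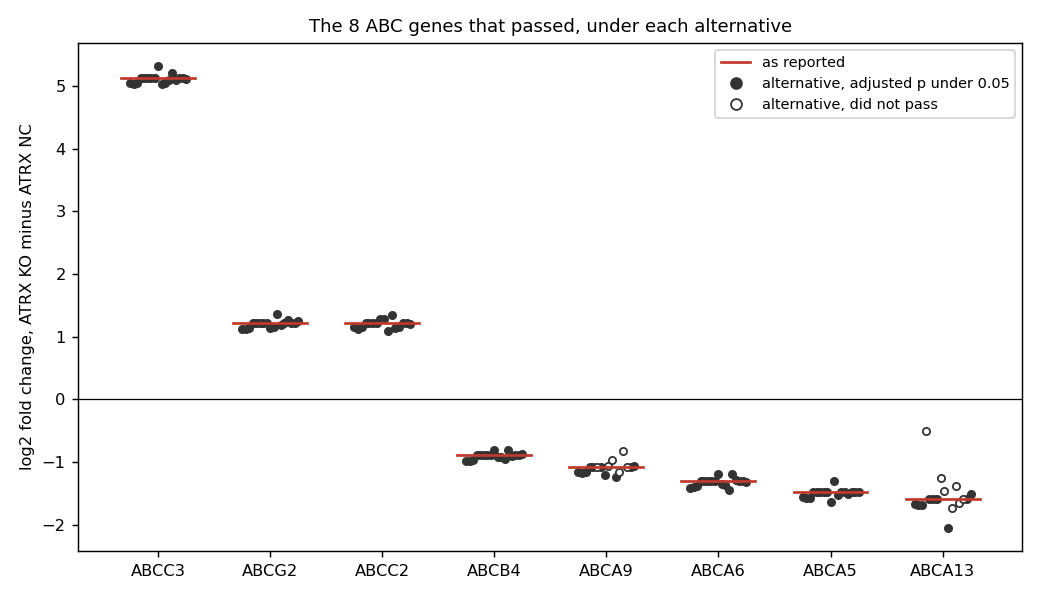
Log2 fold change of the 8 ABC genes that passed, ATRX KO minus ATRX NC, as reported (red line) and under each alternative (points; open where adjusted p was not under 0.05). ABCC3, ABCG2, ABCC2, ABCB4, ABCA6 and ABCA5 have only filled points, while ABCA9 and ABCA13 have open ones.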

How the data were processed

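Total RNA of 3 ATRX NC and 3 ATRX KO samples was measured on arrays. The authors deposited log2 intensities of 135748 transcript clusters per array, which their methods describe as quantile-normalized in limma. Background correction, probe summary and software versions were details not given in the sources used here. Their methods speak of Agilent arrays, but the cluster identifiers and the labelling kit belong to Affymetrix. An array gives no read depth, and the values lack detection calls, so the number of arrays limits precision and dim levels may be compressed.

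Clusters were named from the platform annotation (36176 with 1 symbol, 1119 with several, 98453 with none), with symbols updated through Entrez numbers for 25516 of them. The brightest cluster of a gene was kept. ATRX KO was compared with ATRX NC over 33616 genes without a filter, with the moderated test (lmFit, then eBayes) of limma 3.58.1, run in R 4.3.3, and Benjamini-Hochberg adjustment. Scripts were tested on simulated data. Named were every member that passed, the 4 drug efflux members, ABCA1 and ABCG1, up to 3 examples of other groups and up to 4 passing genes of each partner list. Genes beside passing members, SLCO3A1, PLTP, NCEH1 and the markers FLT1, COL1A1, ACTA2, KRT8, KRT18, EPCAM and CDH1 were named after their values were seen. Members and lists were chosen with earlier results of these data known.

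Alternatives were a second quantile normalization, median centring, cyclic loess, a filter on dim genes, the mean over clusters, all clusters, the replicate number as a block, a robust fit with a variance trend (statmod 1.5.0), each array left out, and the t-test that the methods name. Protein-coding genes alone, and removal of a span trend among them, were added after seeing the data.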

Additional observations from a re-analysis of the deposited data

How the results depend on the processing

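ABCC3, ABCG2, ABCC2, ABCA5, ABCA6 and ABCB4 kept their direction and passed under every alternative that tested them. A filter on genes above the median level left out ABCC2, ABCA9, ABCA13, ABCB1 and ABCG1. ABCA9 and ABCA13 did not pass the methods' t-test after adjustment (adjusted p = 0.139 and 0.192). Over all genes 1947 rose and 1251 fell. The counts were 3051 and 1909 with that filter, 3207 and 1934 with a variance trend and robust fit, 1224 and 771 by the methods' t-test after adjustment and 4650 and 2775 before it. Leaving out each array in turn gave 1037 to 1354 up and 739 to 836 down, with fewer arrays in each fit.

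The number of members that rose was 3 in every fit that left out an array, 5 with the variance trend and robust fit (ABCA12 and ABCB6 besides), 5 with protein-coding genes alone and 8 by the unadjusted methods' t-test. The number that fell was 6 with the variance trend and robust fit (ABCD3 besides) and 6 by the unadjusted methods' t-test. It was 3 by the adjusted methods' t-test and 3 to 4 without an array (3 without ATRX NC array 2 or ATRX KO array 3). The lipid transporters called were also 3 by that test and 3 to 4 without an array (3 without ATRX NC array 2, ATRX KO array 2 or ATRX KO array 3). They were 7 with the variance trend and robust fit and 6 by the unadjusted methods' t-test. The drug efflux members called stayed at 2. The sign of ABCB1 turned with median centring (a log2 fold change of -0.023). Leaving out each array in turn gave -0.081 to 0.35 for ABCB1, -0.034 to 0.21 for ABCC1 and -0.32 to 0.16 for ABCG1, and these 3 passed in none of the fits. The causes were not tested.

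The sources do not say whether the same replicate numbers in both groups pair the samples. Deviations of same-numbered arrays from their group means correlated at -0.04 to -0.00, and those of other array pairs at -0.01 to 0.03. No shared deviation was seen, but 3 arrays per group cannot show whether samples were handled in pairs. With the replicate number as a block 1255 genes rose and 804 fell, and ABCA9 (adjusted p = 0.068) and SREBF1 (0.056) lost their call among the 23 genes run singly under the alternatives.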
